A study of Homo sapiens with 60 samples.

Results

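The 0.01 nM dimerizer experiment compares 3 libraries of cells held in 0.01 nM of the drug for 24 h with 3 libraries of untreated cells, together 6 of the 60 RNA-seq libraries of the series. The 3 treated libraries carry the titles for 0.01 nM at 24 h, the 3 untreated libraries those of the first of 2 untreated sets, and both have like sequencing depth. Every cell in the study is U2OS, a human osteosarcoma line, that carries Dmr-PERK, the kinase domain of PERK joined to a dimerization domain, and the labels give the genotype of all groups as WT. The drug, AP20187, is a cell-permeable dimerizer that brings these domains together, so the kinase is switched on without any damage to the endoplasmic reticulum. The labels describe the lowest dose as a level at which protein synthesis is barely inhibited while ATF4 protein is already made. Cells were plated a day before treatment in DMEM with 10% serum, with dimerizer given so many hours ahead of lysis, in triplicate. No untreated culture was handled in parallel with each time point, so the drug, its addition and the hours in culture cannot be told apart in what follows. The labels do not say whether the 3 replicates were separate cultures, so the p-values measure the spread between these libraries, which may be technical.

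PERK is a kinase that phosphorylates the translation initiation factor eIF2α, the shared step of the integrated stress response. Phosphorylated eIF2α lowers general protein synthesis and at the same time favours translation of the mRNA of ATF4, a transcription factor that switches on genes for amino acid synthesis, amino acid uptake and tRNA charging. Further members of the pathway are the transcription factors ATF3 and CHOP (the product of DDIT3) and the phosphatase subunit GADD34 (the product of PPP1R15A), which removes the phosphate from eIF2α again.

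The libraries differed in ways that bear on all results. Summed counts were 7824305 to 8708607 in the treated libraries, 7169845 to 8395215 in untreated set 1 and 20713981 to 26748455 in the deeper untreated set 2. The first untreated set stood apart from all other libraries in its share of mitochondrially encoded mRNA, 8.84% ± 0.616 of the counts (SD, n = 3), against 4.44% ± 0.0513 in set 2 and 4.75% ± 0.0462 in the treated libraries, and 3.28 to 5.58% in every library outside set 1. The 2 untreated sets differed from each other at 5215 of 18040 genes (28.9%, edgeR's quasi-likelihood test, Benjamini-Hochberg adjusted p under 0.05) with no drug in either, so results against set 1 are set beside values against set 2 and, for some, against 0.01 nM at 1 h. Of 10 mesenchymal and bone markers, 7 averaged 1 TPM or more in set 1 and 8 after treatment (summed TPM 5620 to 5760 and 4780 to 4990), while SP7 and COL1A2 were at or near 0. Epithelial markers were present too, summing to 760 to 825 TPM in set 1, 964 to 990 in set 2 and 741 to 762 in the treated libraries. Of these 7 markers, 5 averaged 1 TPM or more in set 1 and 6 after treatment, with KRT18 and KRT8 the highest (584 and 186 TPM in set 1). Markers of blood cells summed to 0.934 to 2.22 TPM in set 1 and 2.12 to 4.32 in the treated libraries, where 4 of 7 were at 0, and endothelial markers to 2.51 to 3.83 and 5.63 to 6.82. The part of these markers in the results was not tested.

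After 24 h at 0.01 nM, 7053 of 18040 genes (39.1%) differed from untreated set 1, of which 3413 (18.9%) were higher and 3640 (20.2%) lower. Most differences were small, and the median absolute log2 fold change over all genes was 0.244. At least 2-fold changes were seen for 879 genes (4.87%) on the higher side and 390 (2.16%) on the lower side. Against set 2, 7516 genes (41.7%) differed, 3560 (19.7%) higher and 3956 (21.9%) lower. The 2 comparisons share the treated libraries. Genes called higher in both numbered 1964, genes called lower in both 2495. In opposite directions, 51 genes were higher than set 1 and lower than set 2, and 91 the other way round. Of the 879 genes at least 2-fold higher than set 1, 495 were not called higher than set 2 and 573 were not protein coding. At least 2-fold changes against both untreated sets were found for 157 genes on the higher side and 259 on the lower side. The share of calls on the higher side, 48.4% by counts, was 88.5% when limma was run on log2(TPM + 1), and on that scale the median of all genes lay 0.216 above untreated set 1. With TPM rescaled after removal of the mitochondrially encoded genes, whose TPM share was 21.6 to 24% in set 1 and 13.2 to 13.8% in the treated libraries, the median shift was 0.093 and the share 71.6%. Small list medians and single-gene values on the TPM scales below are read against these shifts.

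**Figure D1:**
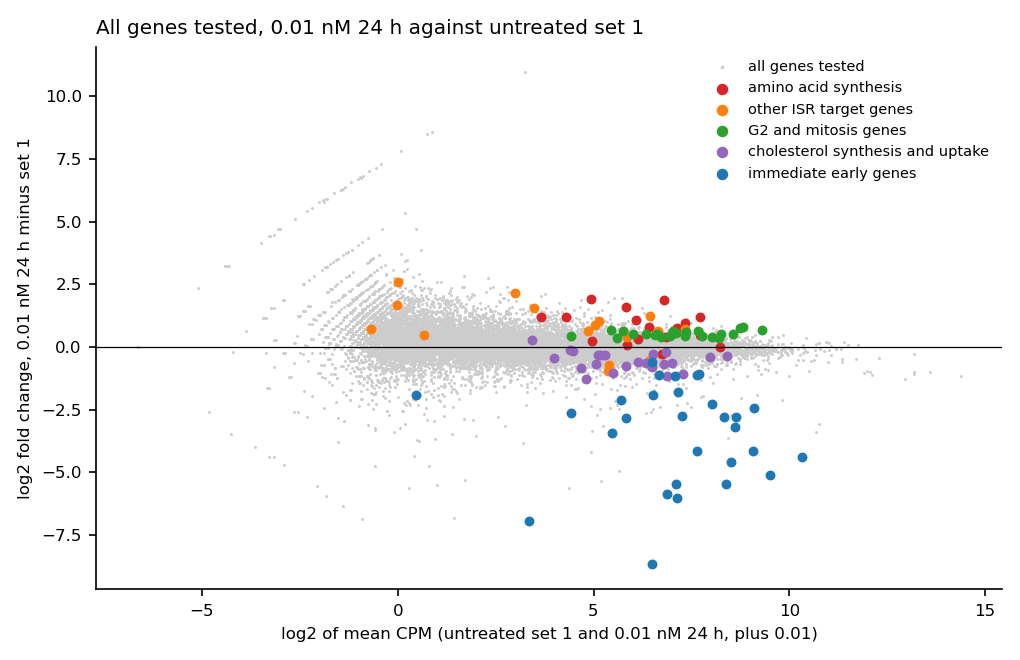
Log2 fold change of each of the 18040 genes tested (vertical axis, 0.01 nM at 24 h minus untreated set 1, mean of 3 libraries each) against mean abundance (horizontal axis, log2 CPM, counts scaled to library size). Immediate early genes (blue) lie below 0 down to -8.68, while amino acid synthesis genes (red) and other integrated stress response targets (orange) reach 1.91 and 2.6.

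The mRNA of ATF4 itself was modestly higher after 24 h at the low dose. ATF4 (ENSG00000128272.14, chr22:39519695-39522685, plus strand, GRCh38) was at 364.9, 370.4 and 369.2 CPM (counts scaled to library size) in the 3 libraries of untreated set 1, at 295.8, 298.7 and 284.1 in set 2, and at 418.2, 442.6 and 421.7 in the treated libraries. Every treated library lay above every untreated library. The log2 fold change was 0.22 (SE 0.0354, adjusted p = 1.2e-06, edgeR) against set 1 and 0.55 against set 2. The mRNA of PERK (EIF2AK3) was at 627.0 to 672.9 CPM in set 1, 736.1 to 749.2 in set 2 and 776.2 to 796.3 after treatment, log2 fold changes of 0.26 and 0.08 (adjusted p = 2.2e-09 and 0.031). Reads of the engineered kinase and of the cell's own gene cannot be told apart in this count. TRIB3, a pseudokinase that dampens ATF4, was at 25.19, 30.14 and 27.06 CPM in set 1 and 55.95, 59.81 and 47.05 after treatment, with no overlap. Its log2 fold change was 0.99 (SE 0.104, adjusted p = 8.4e-12) against set 1 and 1.22 against set 2. Smaller rises were found for CEBPG, the partner of ATF4 in binding DNA (0.42 and 0.45 against the 2 sets), NUPR1, a stress-induced chromatin protein (0.57 and 0.59), ATF5 (0.44 and 0.18) and JDP2 (0.34 and 0.44). JDP2 was not called by limma on log2(TPM + 1) with TPM rescaled without mitochondrially encoded genes (0.25, adjusted p = 0.055). There the median of all genes was 0.093.

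The ATF4 target genes outside amino acid metabolism were higher as a group. Of 16 genes tested in this list, 11 were higher and 3 lower than set 1, and the median log2 fold change was 0.72 against 0.013 over all genes. Against set 2 the same counts were 11 and 3 and the median 0.85. Over all genes, 18.9% were higher than set 1 and 19.7% higher than set 2. CHAC1 (ENSG00000128965.11, chr15:40952962-40956519), an enzyme that degrades glutathione, was at 6.52, 4.896 and 5.578 CPM in set 1, at 3.668, 2.772 and 3.068 in set 2 and at 15.79, 19.05 and 15.28 after treatment. The treated libraries did not overlap either untreated set, as was the case on the higher side for 22.6% of all genes against set 1 and 24.0% against set 2. Its log2 fold change was 1.55 (SE 0.128, adjusted p = 2.7e-15) against set 1 and 2.39 against set 2. DDIT4, an inhibitor of the growth kinase complex mTORC1, went from 46.51 to 55.78 CPM in set 1 to 113.7 to 132.8 after treatment, a log2 fold change of 1.24 (SE 0.0724, adjusted p = 1.4e-21), and of 1.45 against set 2. SESN2, another inhibitor of mTORC1, changed by 0.41 and 0.95.

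Secreted products of the response were among the genes with the largest rises. INHBE, which encodes a subunit of activin E, was at 2.685, 2.601 and 3.347 CPM in set 1, at 2.732, 3.489 and 3.068 in set 2 and at 11.56, 13.51 and 13.93 after treatment. The treated values lay far outside the range of both untreated sets, at log2 fold changes of 2.17 (SE 0.162, adjusted p = 5.1e-17) and 2.08. FGF21, a hormone of the starvation response, rested on few reads, 6 counts over set 1 and 45 over the treated libraries. Its CPM values were 0.2557, 0 and 0.5578 in set 1 and 1.716, 2.326 and 1.1 after treatment, for a log2 fold change of 2.6 (SE 0.562, adjusted p = 0.00015) and of 3.74 against set 2. STC2, a secreted glycoprotein, likewise rested on 10 and 39 counts (1.68, adjusted p = 0.0012, and 2.38 against set 2). The 3 list members that were lower than both sets were GDF15, HERPUD1 and KLHL24, at -0.97, -0.53 and -0.7 against set 1 and -0.34, -0.16 and -0.82 against set 2. KLHL24 was not called by limma on log2(TPM + 1) (-0.11, adjusted p = 0.74), where the median of all genes was 0.216.

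Amino acid synthesis was the list with the highest median. Of 17 genes, 14 were higher than set 1 and 1 lower (ALDH18A1, -0.3), and the median log2 fold change was 0.80, with 16 higher, 1 lower and a median of 0.88 against set 2. Exceptions such as this, and list members beyond the 4 with the largest changes, were picked for naming after their values were seen. Among all genes, 18.9% were higher than set 1 and 19.7% higher than set 2. ASNS (ENSG00000070669.16, chr7:97852118-97872542, minus strand), which makes asparagine, was at 45.26, 44.67 and 55.23 CPM in set 1, at 52.4, 50.61 and 50.96 in set 2 and at 167.9, 183.0 and 176.6 after treatment. The 2 untreated sets overlapped each other and the treated libraries stood well above them. The log2 fold change was 1.86 (SE 0.0669, adjusted p = 2e-31) against set 1, 1.78 against set 2 and 1.83 against 0.01 nM at 1 h. The serine pathway rose at each of its steps. PHGDH, which commits 3-phosphoglycerate to serine, was at 116.5, 128.7 and 140.2 CPM in set 1 and 287.7, 314.2 and 286.0 after treatment (log2 fold change 1.21, adjusted p = 2.5e-26, and 1.17 against set 2). PSAT1, the next enzyme, was at 26.08, 28.15 and 30.12 CPM in set 1 and 83.98, 89.17 and 81.88 after treatment (1.6, adjusted p = 1e-23, and 1.68). PSPH, the last step, changed by 1.18 and 1.37. The mitochondrial one-carbon enzymes ALDH1L2 (1.91 and 1.99), MTHFD2 (0.95 and 0.87) and SHMT2 (0.75 and 0.88), which take carbon units from serine, were also higher, as was CTH, which makes cysteine (1.19 and 1.19). PCK2, the mitochondrial form of phosphoenolpyruvate carboxykinase, was at 42.45, 43.45 and 47.0 CPM in set 1 and 107.6, 116.7 and 111.1 after treatment, a log2 fold change of 1.34 (SE 0.0508, adjusted p = 3.1e-30) and of 1.56 against set 2.

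Uptake and tRNA charging rose less than synthesis did by their medians, a difference that was not tested. Of 12 amino acid transporters tested, 8 were higher and 1 lower than set 1 (SLC38A2, -0.52), with a median of 0.49, and against set 2 the median was 0.39. Among all genes, 18.9% were higher and 20.2% lower than set 1. SLC7A11, the cystine importer, was at 21.22, 22.64 and 21.48 CPM in set 1, at 26.76, 23.28 and 24.73 in set 2 and at 82.27, 87.95 and 84.69 after treatment. Its treated libraries were close to each other and clear of both untreated sets, at log2 fold changes of 1.97 (SE 0.0831, adjusted p = 5.5e-28) and 1.76. SLC1A4 and SLC1A5, carriers of neutral amino acids, changed by 0.96 and 0.95 against set 1 and by 1.06 and 1.33 against set 2. Of 20 cytosolic aminoacyl-tRNA synthetases, 15 were higher and 2 lower (DARS, -0.18, and QARS, -0.29), with a median of 0.46 and, against set 2, of 0.39. None of the exceptions ALDH18A1, SLC38A2, DARS and QARS was called by limma on log2(TPM + 1). They were at -0.09, -0.07, 0.10 and -0.08 on that scale, where the median of all genes was 0.216. Among the synthetases, the tyrosine enzyme YARS had the largest rise, from 98.19, 109.1 and 111.4 CPM in set 1 to 229.9, 241.1 and 220.2 (log2 fold change 1.12, SE 0.0532, adjusted p = 1.4e-25, and 1.09 against set 2). EIF4EBP1, a repressor of cap-dependent translation, was at 35.95 to 39.63 CPM in set 1 and 65.38 to 75.4 after treatment, a log2 fold change of 0.92 (adjusted p = 5.6e-14) and of 1.16 against set 2.

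**Figure D2:**
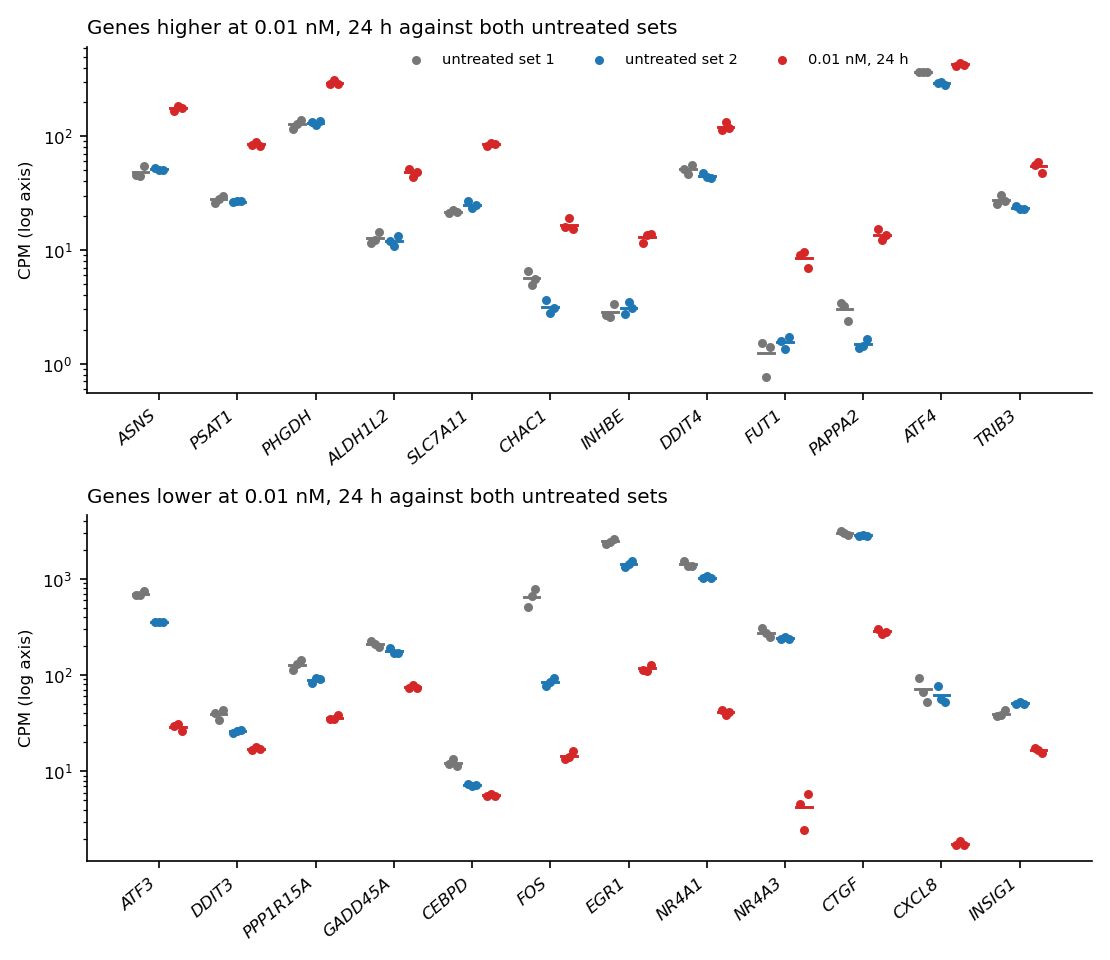
CPM on a log axis for 24 genes, with a point for each of 3 libraries and a bar for their mean, in untreated set 1 (grey), untreated set 2 (blue) and 0.01 nM at 24 h (red). In the upper panel ASNS is at 167.9 to 183.0 CPM after treatment against 44.67 to 55.23 in both untreated sets, and in the lower panel ATF3 is at 26.52 to 31.01 against 350.9 to 742.3.

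Genes with no place in these lists rose as far. FUT1, a fucosyltransferase, had the largest rise against set 1 among the genes eligible to be named. It was at 1.534, 0.7649 and 1.395 CPM in set 1, at 1.572, 1.338 and 1.721 in set 2 and at 9.039, 9.637 and 6.966 after treatment. The treated libraries were apart from both sets, at log2 fold changes of 2.77 (SE 0.25, adjusted p = 6.7e-14) and 2.45. PAPPA2, a protease that releases insulin-like growth factors from their binding proteins, was at 3.452, 3.213 and 2.371 CPM in set 1, at 1.385, 1.434 and 1.646 in set 2 and at 15.22, 12.18 and 13.44 after treatment (2.17 and 3.18). The peptide hormone gene SPX (2.13 and 2.02), the small GTPase RAB39B (2.12 and 2.04), the membrane adaptor ANK2 (1.82 and 2.04) and the collagen receptor DDR2 (1.26 and 1.31) were higher than set 1 and set 2 with no overlap of libraries. So were 2 noncoding RNAs, LINC01089 (1.57 and 1.39) and ZNF436-AS1 (1.48 and 1.56), the second an antisense gene whose reads may be shared with its partner. Lack of overlap with set 1 was a condition for naming the genes of this paragraph, so it followed from their choice. Against set 2, libraries were apart on the higher side for 24.0% of all genes.

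Promoters of the raised genes are shown because ATF4 and its partners are known to bind composite elements of the form TGATGNAA. This motif was searched on both strands in RefSeq windows (GRCh38.p14, 250 bases before to 50 after each start), and 1270 of 35116 windows (3.62%) held it. Of the 47 higher members of the 4 lists above (other integrated stress response targets, amino acid synthesis, transporters and synthetases), 36 had a window and 17 of these held the motif (47.2%). These lists hold pathways that ATF4 is known to switch on, and members that did not rise were not counted, so the 47.2% is no test. Of the 157 genes at least 2-fold higher than both untreated sets, 69 had a window and 10 held the motif (14.5%), against 6 of 151 (3.97%) among the genes at least 2-fold lower. The 10 include ASNS, CHAC1 and FGF21 from the 4 lists, and both FUT1 and FGF21, whose windows share a stretch. This contrast is therefore no independent test either. A gene counted if any of its windows matched, so shares of genes are not like the 3.62% of windows. Distances are counted from the start RefSeq gives, which can lie inside the GENCODE span given here, as for ASNS and CHAC1. The stretches below run 5′ to 3′ on the strand of the gene, with the motif in capitals. A match is a description of letters, not of binding.
ASNS, chr7:97872443-97872502, minus strand: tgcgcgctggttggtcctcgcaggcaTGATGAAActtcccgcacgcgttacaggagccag
CHAC1, chr15:40953236-40953295, plus strand, match on the other strand: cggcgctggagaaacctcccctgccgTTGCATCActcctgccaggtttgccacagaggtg
FUT1, chr19:48755444-48755503, minus strand: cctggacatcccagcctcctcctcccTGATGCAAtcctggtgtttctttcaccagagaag
ANK2, chr4:112817957-112818016, plus strand: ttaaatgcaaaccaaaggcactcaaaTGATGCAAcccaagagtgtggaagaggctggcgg
ATF3, chr1:212565190-212565249, plus strand: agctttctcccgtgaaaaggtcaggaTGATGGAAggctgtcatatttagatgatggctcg
The motif ended 60 bases before the RefSeq start of ASNS, 201 before that of CHAC1, 111 before FUT1 and 114 before ANK2. FUT1 and FGF21 start 166 bases apart on opposite strands, and the FUT1 stretch also lies inside the window of FGF21. ATF3 carries the motif 183 bases before a RefSeq start near the 5′ end of its GENCODE span, and any window without a match is not shown. The gene was lower after treatment, as described next.

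The stress genes ATF3, DDIT3 and PPP1R15A were lower, not higher, at 24 h of the low dose. ATF3, a stress and immediate early transcription factor (ENSG00000162772.16, chr1:212565334-212620777), was at 678.6, 681.2 and 742.3 CPM in set 1, at 351.7, 350.9 and 356.0 in set 2 and at 29.29, 31.01 and 26.52 after treatment. All treated libraries were below all untreated libraries, by 24.15-fold against set 1 and 12.16-fold against set 2; libraries were apart on the lower side for 23.0% of all genes against set 1 and 26.5% against set 2. The log2 fold changes were -4.59 (SE 0.0942, adjusted p = 1.3e-43) and -3.6. DDIT3, which encodes CHOP, was at 40.4, 34.27 and 43.09 CPM in set 1, at 24.74, 26.1 and 27.16 in set 2 and at 16.59, 17.83 and 16.99 after treatment. The libraries were apart again, though the gap to set 2 was narrow, and the log2 fold changes were -1.2 (SE 0.117, adjusted p = 8.2e-13) and -0.6 (adjusted p = 5.2e-06). PPP1R15A was at 111.9, 129.3 and 142.5 CPM in set 1 and 34.67, 35.22 and 38.5 after treatment, log2 fold changes of -1.82 (SE 0.0694, adjusted p = 3.5e-30) and -1.29 against set 2. GADD45A, a growth arrest gene, followed with -1.48 and -1.22. CEBPB, a transcription factor of the C/EBP family, was lower than set 1 (-0.41) but not called against set 2 (0.13, adjusted p = 0.083) or, against set 1, by limma on log2(TPM + 1) (-0.14, adjusted p = 0.055). Over the 18 transcription factors and regulators in the list, 8 were higher and 9 lower than set 1, with EIF2S1 not called. Among all genes, 18.9% were higher and 20.2% lower than set 1. The list median of -0.08 became 0.22 on the log2(TPM + 1) scale, where that of all genes was 0.216.

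Immediate early genes, which growth factors and stresses switch on within minutes without new protein synthesis, formed the list that was lowest after treatment. All 29 tested were lower than set 1, with a median log2 fold change of -2.81, and 28 were lower than set 2, with a median of -2.27 (PHLDA1 was the exception). Of all genes, 20.2% were lower than set 1. EGR1, a zinc finger transcription factor (ENSG00000120738.7, chr5:138465490-138469315), was at 2276, 2423 and 2603 CPM in set 1, at 1323, 1413 and 1535 in set 2 and at 112.7, 111.1 and 127.8 after treatment. Both untreated sets lay far above the treated libraries, with log2 fold changes of -4.38 (SE 0.0867, adjusted p = 2.5e-44) and -3.6. FOS, a subunit of the transcription factor AP-1, was at 510.2, 654.3 and 784.6 CPM in set 1, at 77.63, 85.41 and 92.11 in set 2 and at 13.39, 13.96 and 16.25 after treatment (-5.48 and -2.55). The untreated sets differed widely for FOS, so its size depends on the control. The nuclear receptor genes NR4A1 and NR4A3 did not, with NR4A1 at 1358 to 1520 CPM in set 1, 1009 to 1053 in set 2 and 38.44 to 43.48 after treatment (-5.1 and -4.64), and NR4A3 at -6.02 and -5.83. FOSB fell by 8.68 and 5.72 on the log2 scale, with 11 counts left over the 3 treated libraries, and EGR4 by 6.96 and 6.5, with 4 counts left. NR4A2, the remaining member of its family, changed by -5.45 and -4.76, and DUSP2, a phosphatase of MAP kinases, by -4.15 and -4.28. Outside the list, similar falls were measured for KRTAP2-3, a keratin-associated protein (-4.95 and -4.32), RCAN1, an inhibitor of calcineurin (-3.63 and -3.63), and ESM1, a secreted proteoglycan (-3.55 and -3.32, with 16 counts left).

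Promoter stretches of EGR1 and EGR2 are shown because serum response factor is known to drive such genes through the CArG box, whose letters are in capitals here. The box was found in 454 of 35116 RefSeq windows (1.29%). Of 21 genes of the immediate early list with a window, 3 held it (14.3%; EGR1, EGR2 and SRF). So did 8 of 151 genes (5.3%) at least 2-fold lower than both sets and 2 of 69 (2.9%) at least 2-fold higher. A gene counted if any of its windows matched, so shares of genes are not like the share of windows.
EGR1, chr5:138465348-138465431, plus strand: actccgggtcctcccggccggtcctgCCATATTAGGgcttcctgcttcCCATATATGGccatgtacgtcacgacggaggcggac
EGR2, chr10:62816402-62816463, minus strand: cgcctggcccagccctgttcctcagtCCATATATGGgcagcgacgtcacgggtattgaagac
EGR2 itself changed by -5.86 against set 1 and -5.56 against set 2.

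Inflammatory genes and YAP targets were lower as well. Of 23 genes of the NF-kB list tested, 17 were lower and none higher than set 1, with a median of -1.13, and against set 2 20 were lower with a median of -1.69. Among all genes, 20.2% were lower than set 1 and 21.9% lower than set 2. CXCL8, a chemokine that attracts neutrophils, was at 94.1, 67.16 and 52.58 CPM in set 1, at 76.28, 55.82 and 52.04 in set 2 and at 1.716, 1.883 and 1.711 after treatment. The untreated libraries scattered more within a set than the set means differed, and all lay far above the treated libraries (log2 fold changes -5.33, SE 0.28, adjusted p = 1.5e-23, and -5.11). TNFAIP3, an inhibitor of NF-kB that NF-kB itself induces, changed by -3.35 and -3.64, and PTGS2, the inducible cyclooxygenase, by -3.83 and -3.21. CCL4 and TNF were each left with 1 count over the 3 treated libraries, for ratios to set 1 of 139 (24.4 to 5520) and 16.9 (2.57 to 714), with exact 95% intervals for counting error only. Against set 2 these ratios were 63.5 (11.3 to 2520) and 42.2 (7.44 to 1680). Of 16 YAP target genes, 12 were lower and 3 higher than set 1, with a median of -0.59 against set 1 and -0.73 against set 2. The connective tissue growth factor gene CTGF (also CCN2) was at 3127, 2985 and 2817 CPM in set 1, at 2775, 2841 and 2802 in set 2 and at 300.8, 265.5 and 282.7 after treatment. Its untreated sets overlapped, and the log2 fold change was -3.4 (SE 0.0577, adjusted p = 9.7e-48) against set 1 and -3.31 against set 2. CYR61, its close relative, changed by -3.08 and -2.88.

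Cholesterol genes fell together. Of 23 genes tested, 20 were lower than set 1 and none higher, with a median of -0.58, and 21 were lower than set 2, with a median of -0.76. For all genes the lower shares were 20.2% against set 1 and 21.9% against set 2. HMGCS1, an early enzyme of the pathway, was at 205.7, 212.2 and 215.0 CPM in set 1, at 273.1, 262.8 and 263.7 in set 2 and at 99.2, 104.6 and 100.1 after treatment. The treated libraries held less than either set, which differed by less from each other, and the log2 fold changes were -1.06 (SE 0.0484, adjusted p = 2.5e-26) and -1.4. INSIG1, which holds the sterol sensor in the endoplasmic reticulum, changed by -1.27 and -1.61, and MSMO1, a later enzyme of the pathway, by -1.02 and -1.17.

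Genes of cell division were higher after 24 h at the low dose. All 25 genes of G2 and mitosis tested were higher than set 1, with a median of 0.53, and all 25 were higher than set 2, with a median of 0.42. Over all genes, 18.9% were higher than set 1 and 19.7% higher than set 2. MKI67, the proliferation marker Ki-67, was at 298.5, 322.3 and 379.5 CPM in set 1, at 426.3, 419.3 and 431.5 in set 2 and at 594.5, 538.6 and 580.8 after treatment. The treated libraries were above both sets, and set 2 was above set 1, so the log2 fold change of 0.78 (SE 0.0547, adjusted p = 4.6e-18) against set 1 was 0.42 against set 2. TOP2A, the DNA topoisomerase of mitosis, was at 452.5 to 526.7 CPM in set 1, 566.1 to 579.0 in set 2 and 766.6 to 777.4 after treatment (0.66 and 0.43). CENPF, a kinetochore protein, changed by 0.74 and 0.41. Of 26 genes of S phase, 15 were higher and none lower than set 1, with a median of 0.19, and 22 were higher than set 2.

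Several lists changed only a little or moved with the control. For all genes, 18.9% were higher and 20.2% lower than set 1, and 19.7% were higher and 21.9% lower than set 2. The 75 cytosolic ribosomal protein genes had a median of -0.18 against set 1, where 66 were lower, but of -0.06 against set 2, where 26 were lower and 6 higher, 0.11 against 0.01 nM at 1 h, and 0.08 against set 1 on the log2(TPM + 1) scale. The 25 genes tested for protein folding and quality control in the endoplasmic reticulum had medians of -0.23 and -0.01 against the 2 sets and 0.03 on the log2(TPM + 1) scale. On that scale the median of all genes was 0.216. HSPA5, the chaperone BiP, was at 604.1, 598.3 and 565.1 CPM in set 1, at 487.2, 466.1 and 453.9 in set 2 and at 452.3, 454.4 and 447.4 after treatment, so it was lower than set 1 (-0.38, adjusted p = 1.7e-13) and not called against set 2 (-0.06, adjusted p = 0.21). The 13 mitochondrially encoded mRNAs had a median of -0.99 against set 1, where all were lower, and 0.09 against set 2, where 7 were higher and 1 lower (MT-CO1). The mitochondrial subunit gene MT-CO2 was at 10490, 12350 and 10500 CPM in set 1, 4676, 4615 and 4634 in set 2 and 4753, 4718 and 4490 after treatment (-1.26 and 0). Of the 28 ribosome biogenesis genes, 10 were higher than set 1 and 1 lower (GNL3, -0.21, and -0.14 with adjusted p = 0.06 by edgeR without replicate 3 of the treated libraries), with medians of 0.08 and -0.01 against the 2 sets. The 21 extracellular matrix genes tested had a median of -0.45 against set 1 and -0.12 against set 2, yet COL3A1, a fibrillar collagen, fell against both (-1.57 and -2.04).

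**Figure D3:**
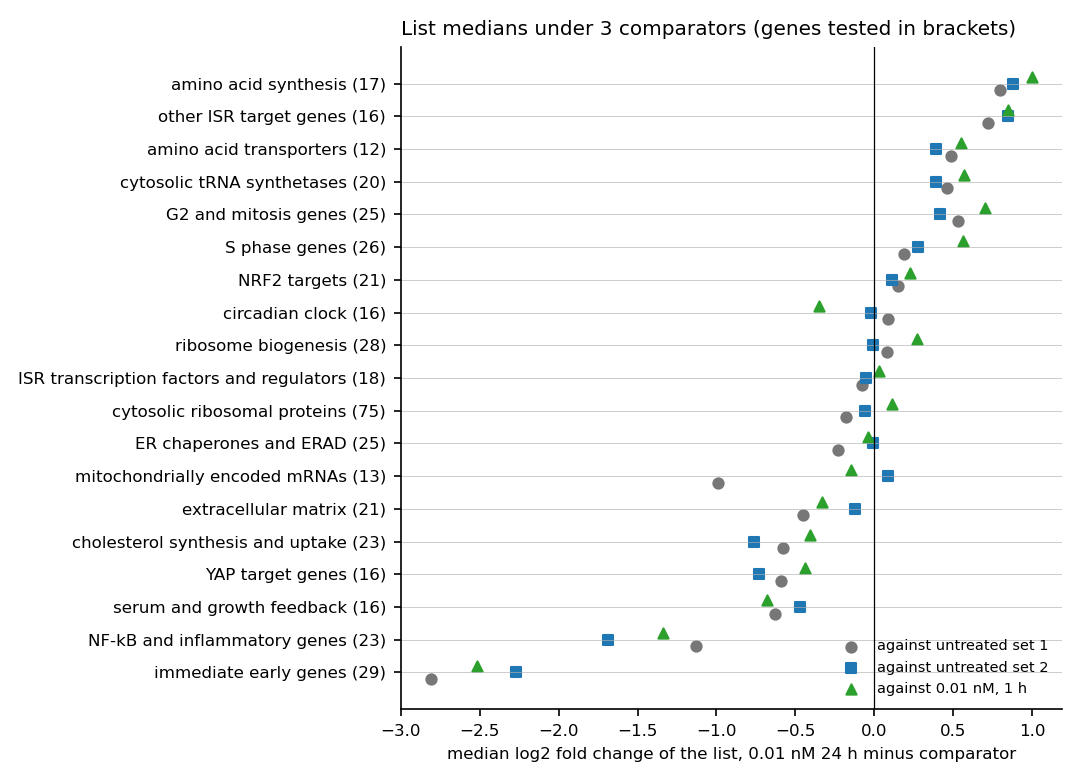
Median log2 fold change (horizontal axis) of 19 gene lists (rows, genes tested in brackets) for 0.01 nM at 24 h against untreated set 1 (grey circles), untreated set 2 (blue squares) and 0.01 nM at 1 h (green triangles). Amino acid synthesis is at 0.8, 0.88 and 1 and immediate early genes at -2.81, -2.27 and -2.52, while the mitochondrially encoded mRNAs move from -0.99 to 0.09 with the control. On the log2(TPM + 1) scale, where the median of all genes is 0.216 against set 1, ribosomal proteins are at 0.08, endoplasmic reticulum chaperones at 0.03 and pathway regulators at 0.22.

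Single genes show how much a change could depend on the control. PKNOX2, a homeobox gene, was at 42.83, 46.81 and 32.77 CPM in set 1 but at 0.9357, 0.8603 and 0.5238 in set 2 and 0.5721, 0.6646 and 1.222 after treatment, so its log2 fold change of -5.64 against set 1 was 0.08 (adjusted p = 0.92) against set 2. Yet PKNOX2 averaged 6.612 CPM at 1 h of 0.01 nM, and against that group its log2 fold change was -3.03 (adjusted p = 1.3e-08, edgeR). POTEE, of a family of near-identical copies whose counts are uncertain, was at 1.395 to 3.213 CPM in set 1, 8.833 to 12.52 in set 2 and 7.864 to 14.19 after treatment (2.2 and 0.12), and POTEH of the same family changed by 2.19 and 0.35 (adjusted p = 0.12 against set 2). Other large rises against set 1 shrank with the control. The antisense gene HOXB-AS3, whose reads may be shared with its partner, changed by 2.4 against set 1, 1.06 against set 2 and 0.92 against 0.01 nM at 1 h. The noncoding RNA FAM95B1 changed by 1.95, 0.64 and 0.26 in the same order, and MPV17L, a peroxisomal and mitochondrial protein gene, by 1.94, 0.7 and -0.05. SOCS3, an inhibitor of cytokine signalling, lay between the sets, at 55.74 to 65.17 CPM in set 1, 18.21 to 20.88 in set 2 and 34.34 to 37.76 after treatment, and was called lower than the first (-0.77) and higher than the second (0.89). The long noncoding RNA LUCAT1 lay between them the other way round (0.57 and -0.88).

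Within the low dose, the 24 h libraries sat past the height of the response for most of the named ATF4 targets. Against 0.01 nM at 1 h, a comparison with no untreated library, 6084 genes (33.7%) differed, 16.7% of all genes higher and 17.1% lower, and the counts for amino acid synthesis were 15 higher and none lower of 17, with a median of 1.00. The median of the other target list, set against untreated set 1, was -0.10 at 1 h, -0.04 at 2 h, 0.25 at 4 h, 1.01 at 8 h, 1.03 at 16 h and 0.72 at 24 h. These medians share the untreated libraries. CHAC1 averaged 3.805 CPM at 1 h, 14.58 at 2 h, 22.08 at 4 h, 46.34 at 8 h, 35.37 at 16 h and 16.71 at 24 h, and the fall from 16 to 24 h had a log2 fold change of -1.08 (adjusted p = 2.4e-15, edgeR, where 13.2% of all genes were lower at 24 h than at 16 h). ASNS averaged 49.55 CPM at 1 h, 139.7 at 8 h, 240.4 at 16 h and 175.8 at 24 h, and its fall from 16 h was -0.45 (adjusted p = 1.4e-09). ATF4 averaged 329.9 CPM at 1 h, 569.0 at 8 h and 427.5 at 24 h (-0.37 from 16 h, adjusted p = 1.1e-12).

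The genes that were lower at 24 h reached low levels at different times. ATF3 averaged 530.8 CPM at 1 h, 124.6 at 2 h, 19.78 at 4 h, 38.46 at 16 h and 28.94 at 24 h. EGR1 averaged 2386 CPM at 1 h, 42.73 at 4 h, 35.19 at 16 h and 117.2 at 24 h, so it stood 1.73 higher on the log2 scale at 24 h than at 16 h (adjusted p = 6.1e-18). CXCL8 averaged 42.39 CPM at 1 h, below the means of set 1 and set 2 (71.28 and 61.38), and 232.9 at 2 h, above them. It then averaged 82.24 CPM at 4 h, 8.667 at 8 h, 1.479 at 16 h and 1.77 at 24 h. KRTAP2-3 averaged 97.7 CPM at 1 h, 47.13 at 4 h, 22.27 at 8 h and 2.85 at 16 h. Set against untreated set 1, the median of the NF-kB list was 1.26 at 2 h, 0.33 at 4 h, -0.68 at 8 h and -1.58 at 16 h. The YAP list was at -0.14 at 4 h and -0.53 at 8 h, and the cholesterol list at -0.13 at 8 h and -0.39 at 16 h. DDIT3 averaged 38.26 and 43.52 CPM at 1 and 2 h and 14.19 at 4 h, and its means at the later times stayed below those of both untreated sets. The clock output gene DBP, a transcription factor with a daily rhythm, had another course: it averaged 26.34 CPM at 1 h, 4.764 at 4 h, 9.154 at 16 h and 43.57 at 24 h, a log2 rise of 2.26 between the last times (adjusted p = 2.1e-21, with 10.4% of all genes higher at 24 h than at 16 h). At 24 h its libraries, at 40.96, 43.42 and 46.32 CPM, were above set 1 (22.18 to 25.94) and set 2 (25.15 to 27.01). PER1 and BHLHE40, clock repressors, were also higher at 24 h than at 16 h (1.76 and 1.31) but lower than untreated set 1 (-1.28 and -1.95).

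**Figure D4:**
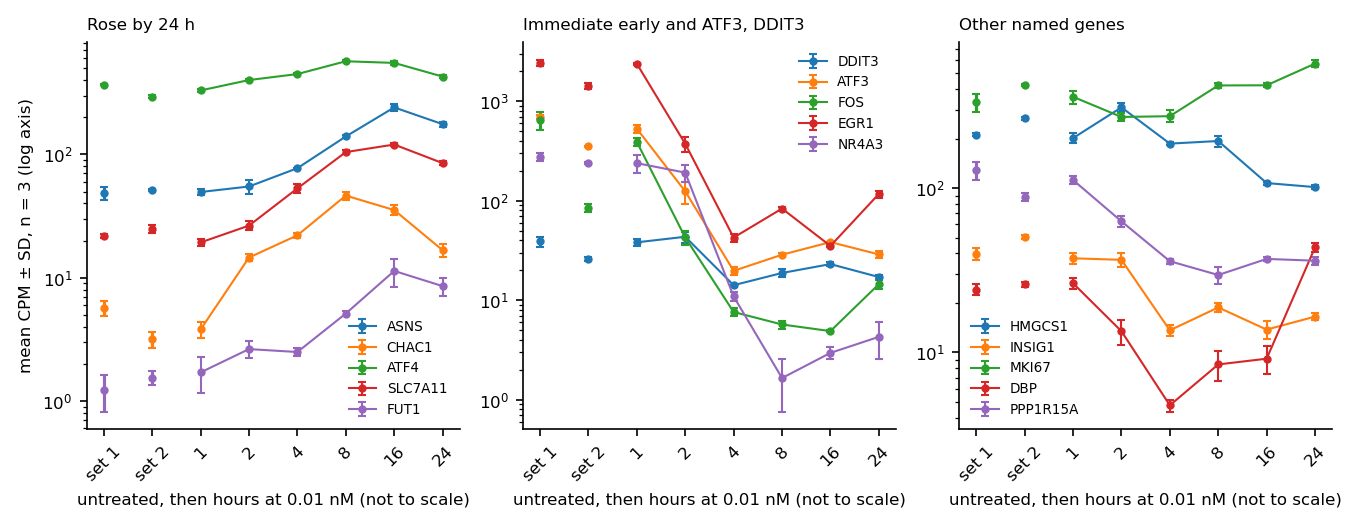
Mean CPM on a log axis with SD (n = 3) in both untreated sets and, joined by lines, after 1, 2, 4, 8, 16 and 24 h at 0.01 nM (horizontal axis, not to scale). ASNS climbs to 240.4 CPM at 16 h and is at 175.8 at 24 h, while EGR1 falls from 2386 at 1 h to 42.73 at 4 h.

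A 24 h exposure to 0.20 nM (the labelled dose, rounded), the next dose, gave higher levels of nearly all raised members of the 4 integrated stress response and amino acid lists. Between these doses 9290 genes (51.5%) differed, 4847 (26.9%) of them higher at 0.20 nM. Of the members higher than set 1 at 0.01 nM, all 11 of the other stress response targets, 13 of 14 in amino acid synthesis (SHMT1 was lower, -0.39), all 8 transporters and all 15 synthetases were higher still at 0.20 nM. Of the 157 genes at least 2-fold higher than both untreated sets at 0.01 nM, 55 were higher and 38 lower at 0.20 nM, among the latter LINC01089 (-0.96) and ZNF436-AS1 (-0.9). Against untreated set 1, 61.1% of all genes differed at 0.20 nM, 32.2% higher and 28.9% lower. ASNS was at 377.4, 381.7 and 382.1 CPM at 0.20 nM, a log2 difference of 1.11 (adjusted p = 9.9e-27) over 0.01 nM, and CHAC1 at 63.53, 63.96 and 64.84 (1.94, adjusted p = 1.7e-30). PHGDH differed by less, at 344.5 to 381.0 CPM (0.31, adjusted p = 1.9e-07). Of the 9 regulators below set 1 at 0.01 nM, 7 were higher at 0.20 nM and 2 not called, CEBPD (0.18, adjusted p = 0.35) and EIF2AK4 (-0.01, adjusted p = 0.93). Among the 7, DDIT3 was at 67.75, 79.03 and 75.87 CPM (2.11, adjusted p = 5.4e-26), PPP1R15A at 131.9, 130.9 and 127.0 (1.85, adjusted p = 3.5e-31) and ATF3 at 85.94, 94.53 and 92.46 (1.65, adjusted p = 1.6e-19). DDIT3 at 0.20 nM lay above both untreated sets, whereas ATF3 stayed below both. Ribosome biogenesis genes, nearly level with untreated cells at 0.01 nM, were higher at 0.20 nM in all 28 cases, with a median of 0.82.

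Other lists differed in the opposite sense. All 25 genes of G2 and mitosis were lower at 0.20 nM than at 0.01 nM, with a median of -0.83, against 24.6% of all genes lower. MKI67 was at 297.3, 293.4 and 298.2 CPM at 0.20 nM, below the treated libraries of the low dose and all of untreated set 1 (log2 difference -0.95, adjusted p = 2.4e-22). DBP was at 6.871, 8.456 and 7.688 CPM (-2.5, adjusted p = 1.5e-25). Cholesterol genes went further down, with 20 of 23 lower than at 0.01 nM and a median of -0.57, and HMGCS1 was at 65.96, 70.36 and 71.92 CPM (-0.55, adjusted p = 4.3e-13). The immediate early list had no common direction between the doses (10 higher and 9 lower of 29), and EGR1, at 102.0 to 107.4 CPM, was not called (-0.17, adjusted p = 0.13).

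**Figure D5:**
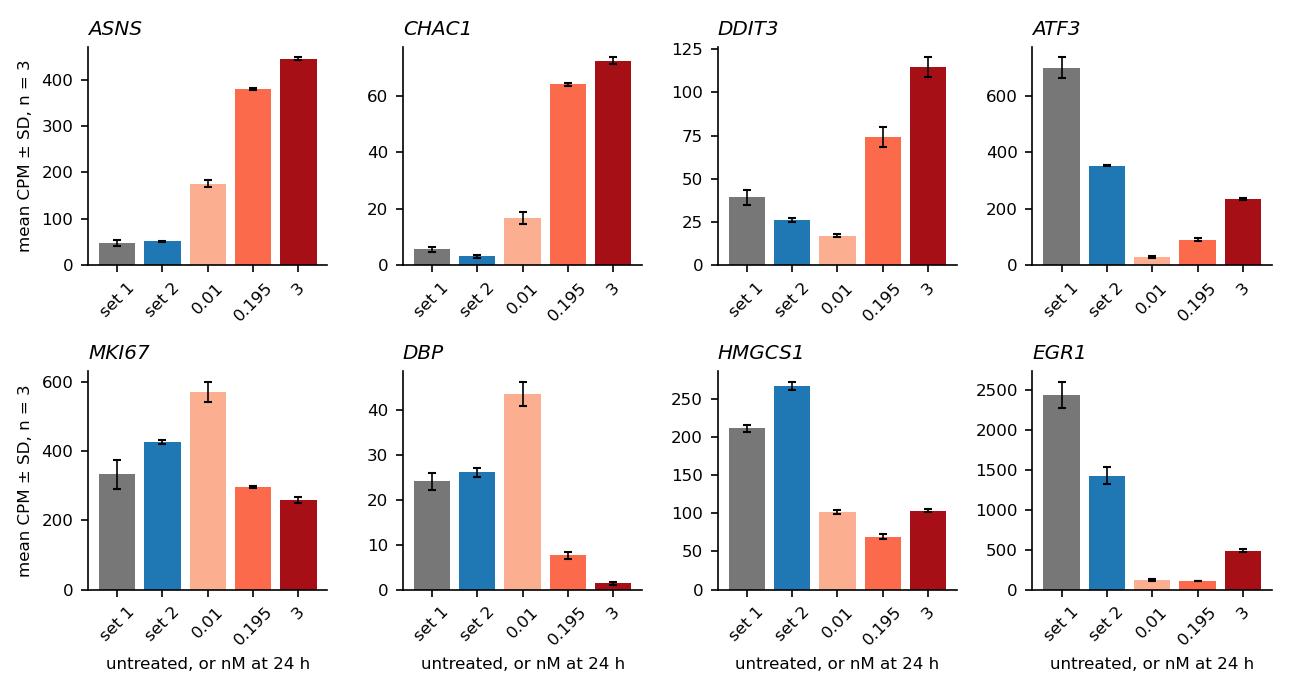
Mean CPM with SD (bars and whiskers, n = 3, linear axes from 0) of 8 genes in both untreated sets and after 24 h at 0.01, 0.20 and 3 nM. ASNS is higher at each dose (175.8, 380.4 and 445.4 CPM), DDIT3 dips at 0.01 nM (17.14) and is high at 0.20 nM (74.22), and MKI67 and DBP peak at 0.01 nM (571.3 and 43.57).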

How the data were processed

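Directional RNA-seq libraries were made from total RNA, per the labels' protocols. The deposited estimated counts and TPM values were made by the authors with Salmon 0.9.1 on GRCh38, per the submitters' processing notes, which also name FastQC 0.11.5. Of the counts above 0, 54.2% were whole within 1e-06.

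Counts were rounded to whole numbers and tested with edgeR 4.0.16 (quasi-likelihood test, TMM scaling, filterByExpr; R 4.3.3) in 1 model of 60 libraries and 20 group means with 40 residual degrees of freedom. P-values were adjusted by Benjamini-Hochberg over 18040 of 57665 genes and called at 0.05. CPM values follow TMM scaling. DESeq2 1.42.0, limma 3.58.1 on log2(TPM + 1), other filters and left-out libraries were alternatives. The method was tested on simulated data. Positions are from GENCODE 29, which matched 57068 genes (99%), and promoters from RefSeq.

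The genes and lists were chosen with earlier results of these data known. Of 186 genes that a rule allowed to be named, the text names a part: the rule took the members of the integrated stress response lists, the 4 members of each other list with the largest changes, and the genes with the largest rises and falls among those reaching 5 CPM with no overlap of libraries. Of these, 1 gene is not reported here. The contrasts with 16 h and of 0.195 nM (printed as 0.20 nM elsewhere) with set 1 were added later. Chi-square per degree of freedom between replicates was 1.461 to 2.751. Each library was counted as 1 sample, though this spread does not show whether the libraries came from separate cultures.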

Additional observations from a re-analysis of the deposited data

Results flagged for a closer look

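At 24 h, 11 of the genes named above differed between 0.01 and 0.20 nM in direction as well as in size: they were called on opposite sides of untreated set 1 at the 2 doses, and edgeR's test of the difference between the doses was past its threshold. The comparisons with set 1 share its 3 libraries, while the difference between doses uses none of them. Higher at the low dose and lower at the next were DBP (log2 fold changes of 0.85 and -1.65, a difference of -2.5), MKI67 (0.78 and -0.17, -0.95), CENPF (0.74 and -0.15, -0.9) and TOP2A (0.66 and -0.22, -0.87). Lower at the low dose and higher at the next were DDIT3 (-1.2 and 0.91, a difference of 2.11), GDF15 (-0.97 and 0.61, 1.58), CEBPB (-0.41 and 0.89, 1.29), GNL3 (-0.21 and 0.82, 1.03), HSPA5 (-0.38 and 0.51, 0.9), HERPUD1 (-0.53 and 0.35, 0.88) and ALDH18A1 (-0.3 and 0.19, 0.49). Of these, CEBPB and HSPA5 were not called at the low dose against untreated set 2.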

How the results depend on the processing

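Counts of genes called moved by less than 1.5 times under all alternatives run except these. Against untreated set 2 (7516 by edgeR), limma called 4143 on log2(TPM + 1), 3951 on log2(TPM + 0.1), 4158 with no filter and 4149 with TPM rescaled without mitochondrially encoded genes, an alternative chosen after seeing the data. Between the untreated sets (5215) the rescaled values gave 2511. The cause was not tested. Against set 1 (7053), DESeq2 called 6815, edgeR without a filter on low counts 6265, the 2 groups alone 6044, the mean of both sets as control 7792 and limma on log2(TPM + 1) 8138, of which 7204 were higher. Like totals hid a change in the genes called. Of the 7053 calls, DESeq2 made 92.5% in the same direction, but limma on log2(TPM + 1) only 3898 (55.3%). For limma this share was 49.8% against set 2 and 46.0% between the untreated sets. Leaving out each replicate in turn gave 6150 to 6613 genes against set 1, 6403 to 6907 against set 2, 5097 to 5597 against 1 h, 8476 to 8725 between the doses and 4012 to 4948 between the untreated sets, with at least 72.6% of the calls made with all libraries. With the replicate block, 7064 genes were called against set 1, 7549 against set 2, 6075 against 1 h, 9289 between the doses and 5260 between the untreated sets. Same-numbered libraries deviated together only weakly (correlations of 0.044, 0.016 and 0.041 for the treated libraries and set 1, own number highest in 1 of 3). Own number was highest in 0 of 3 against set 2 and against 1 h, in 2 of 3 between the untreated sets and in 3 of 3 between the doses (correlations of 0.09 to 0.2), a hint from the data only, and the numbers were not taken to pair the samples.

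With untreated set 2 as control these log2 fold changes turned: CEBPB 0.13, PKNOX2 0.08, PHLDA1 0.13, LUCAT1 -0.88, SOCS3 0.89 and MT-CO2 0.0. With the mean of both sets LUCAT1 was at -0.16 and SOCS3 at 0.06. On the TPM scale DARS turned to 0.1 and GNL3 to 0.01 under each pseudocount and filter, and EIF2AK4 to 0.11 or, with a pseudocount of 0.1, 0.12. The median of all genes was 0.216 on log2(TPM + 1), 0.265 with a pseudocount of 0.1 and 0.054 with no filter. Depth limits FGF21, with 6 counts over set 1 and 45 over the treated libraries, STC2 with 10 and 39, and FOSB with 11 over the treated libraries.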

Other observations

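Some genes of growth control and survival also differed from both untreated sets. Over all genes, 18.9% were higher and 20.2% lower than set 1, and 13.8% were lower than both sets. Of 17 genes tested in the cell death and BCL2 list, 7 were lower and 1 higher than set 1 and 4 were lower than both sets. Their median of -0.15 against set 1 was 0.04 on the log2(TPM + 1) scale, where that of all genes was 0.216. MCL1, the member with the largest change and an anti-apoptotic protein of short half-life, was at 684.5, 662.4 and 668.0 CPM in untreated set 1, at 656.2, 648.5 and 634.0 in set 2 and at 301.6, 292.8 and 303.3 after 24 h at 0.01 nM. The untreated sets lay close together and the treated libraries well below them, at log2 fold changes of -1.17 (adjusted p = 3.7e-35, edgeR) and -1.11. Of 16 genes in the list of serum and growth feedback, 10 were lower and 2 higher than set 1, with a median of -0.63 against set 1 and -0.47 against set 2. CITED2, a transcriptional co-regulator, was at 357.5, 336.1 and 342.8 CPM in set 1 and 83.18, 90.16 and 86.52 after treatment (-2.0 and -1.97 against the 2 sets), ERRFI1, a feedback inhibitor of the EGF receptor, changed by -1.49 and -1.72, and the cell cycle inhibitor CDKN1C by -1.09 and -0.92.

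Of 20 p53 targets, 16 were lower than set 1, against 20.2% of all genes. Their median of -0.25 was -0.19 against set 2 and 0.03 on the log2(TPM + 1) scale, where that of all genes was 0.216. BTG2, an antiproliferative gene, was lower against both controls (-2.38 and -2.15), and CDKN1A, the cell cycle inhibitor p21, less so (-0.77 and -0.3). SLC2A3, a glucose transporter, changed by -1.51 and -1.04. Of 21 NRF2 targets, 9 were higher than set 1, against 18.9% of all genes, and none was lower. Their median was 0.15 against set 1 and 0.11 against set 2, and glutathione reductase, GSR, was higher than both sets (0.50 and 0.48).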
